A study of Rattus norvegicus with 8 samples.

Results

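Small RNA sequencing of rat disc cell exosomes gave a table in which 73 of 1512 miRNA rows carried bovine names, that is, names starting with bta-, the miRBase prefix for cattle. These rows were taken by name alone, without regard to their counts. They held 62 distinct sequences, and counts were summed per sequence. Exosomes are small membrane vesicles that cells release. Their sources were rat nucleus pulposus cells (NPC), which fill the soft centre of the intervertebral disc, and rat nucleus pulposus progenitor cells (NPPC), with 4 libraries for either cell type. The labels name the tissue as intervertebral disc and give no strain, age, treatment, allele, passage or culture medium for either group, so whether bovine serum was used is not given in the sources used here. Nothing in them shows that the 4 libraries of a cell type are independent cultures or animals. The p-values therefore refer to variation among the libraries sequenced, part or all of which may be technical.

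A miRNA is cut from a hairpin precursor, and bases 2 to 8 of the mature strand, the seed, pair with target messenger RNAs. Many miRNAs are the same in all mammals, while others are known from 1 lineage, such as the large miR-2284 and miR-2285 families of ruminants. Culture media often contain fetal bovine serum, which carries bovine vesicles and RNA. Databases of miRNAs also hold entries that were later recognised as pieces of ribosomal, transfer or small nuclear RNA. A bovine name in a rat sample can therefore stand for several kinds of molecule, and the name alone does not tell them apart.

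The table gave a rat genome position for 38 of the rows (30 sequences) and none for 35 (32 sequences). Rows with other names were placed more often: 99.8% of 455 rat-named rows and 90.2% of 225 mouse- or human-named rows had a position, against 52.1% of the bovine-named rows. The genome build of the positions is not given in the sources used here, and no genome of it was used, so no exon or intron is assigned to them. Of the 62 names, 24 carried a base substitution against the miRBase entry, 17 were the exact miRBase sequence and 11 were a hairpin arm that miRBase does not list. All 11 of these arms and 19 of the 24 substituted names had a rat position, while 16 of the 17 exact sequences had none. Thus the placed sequences were mostly altered or unlisted forms, and the unplaced ones were mostly the bovine sequence itself or a form without a substitution.

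The sequences with a position were led by a few short stretches, shown here because they held most of the bovine-named counts. The 4 forms named miR-11987 share 16 bases, in capitals, and differ only at their ends:
miR-11987, 18 bases: gaGGAAACTCTGGTGGAG
miR-11987, 20 bases: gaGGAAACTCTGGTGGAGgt
miR-11987, second form of 18 bases: GGAAACTCTGGTGGAGgt
miR-11987, second form of 20 bases: cgaGGAAACTCTGGTGGAGg

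The pair named miR-11980 shares 18 bases, in capitals, and the abundant miR-12034 form is almost all G and C:
miR-11980, 19 bases: AGGGAACGGGCTTGGCGGa
miR-11980, 18 bases: AGGGAACGGGCTTGGCGG
miR-12034, 18 bases: cccggggagcccggcggg

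The hairpin named miR-2887-2 had counts on both arms. It is shown with both arms because they overlap: the 8 bases in capitals belong to the 5′ arm and the 3′ arm alike. In a miRNA precursor the 2 arms usually lie on either side of a loop. The table places the hairpin at chr6:30640660-30640716 on the plus strand, 57 bases long:
miR-2887-2 hairpin: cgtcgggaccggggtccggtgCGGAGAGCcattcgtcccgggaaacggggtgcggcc
5′ arm: gggtccggtgCGGAGAGC
3′ arm: CGGAGAGCcattcgtcccggga

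Both forms named miR-2478 end in CCA, in capitals, the triplet that mature transfer RNAs carry at their 3′ end:
miR-2478, 18 bases: atcccacttctgacaCCA
miR-2478, 19 bases: aatcccacttctgacaCCA

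The most abundant sequences without a position are shown with the seed in capitals. These 8 are 20 to 23 bases long and come from 8 different entries:
miR-574: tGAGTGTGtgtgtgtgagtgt
miR-504: gACCCTGGtctgcactctgtct
miR-1246: aATGGATTtttggagcaggg
miR-2284y: tGAAAAGTtcgttcgggttttt
miR-335: tCAAGAGCaataacgaaaaatgt
miR-3431: cCTCAGTCagccttgtggatgt
miR-1468: cTCCGTTTgcctgttttgctga
miR-380-3p: tATGTAATgtggtccacgtct

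Sequences with and without a position differed in median length and GC content, with broad overlap. With a position the median length was 20 bases (18 to 23) and the median GC content 56.0% (34.8% to 94.4%). Without one the medians were 22 bases (20 to 25) and 48.9% (23.8% to 73.9%). Rat-named sequences had a median of 22 bases and 47.6% GC, so the unplaced bovine-named sequences lay closer to them in both respects. Only 4.48% of the rat-named sequences were 18 to 20 bases long, against 30.6% of the bovine-named, 66.5% of the mouse- or human-named and 85.9% of the predicted ones. The 19 bovine-named sequences of that length held 68.0% of all bovine-named counts.

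**Figure D1:**
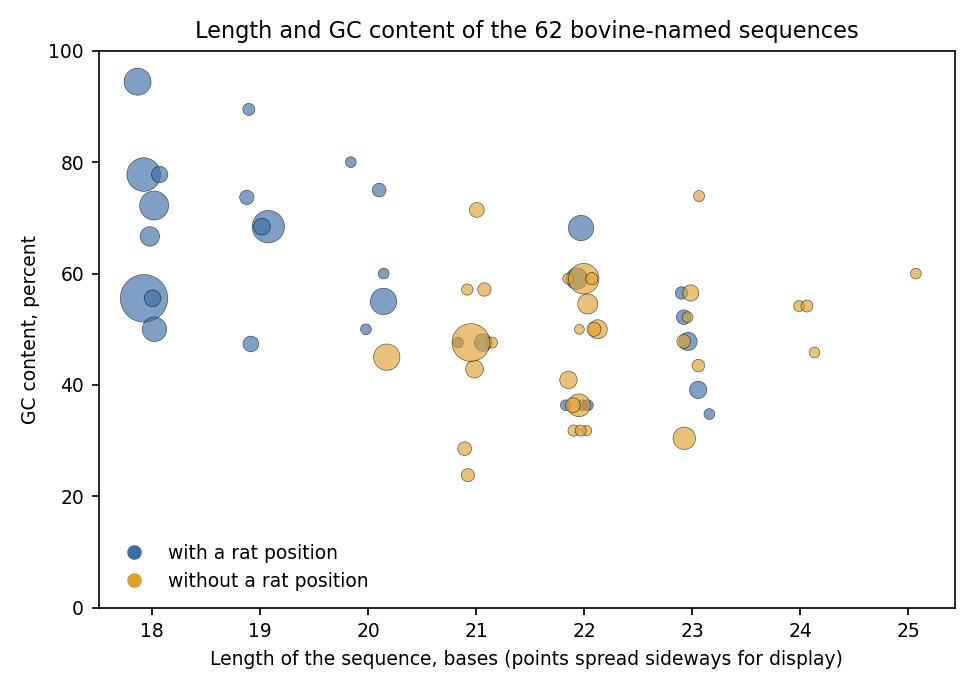
Length in bases (x axis, points spread sideways for display) against GC content in percent (y axis) of the 62 bovine-named sequences, coloured by whether the table gives a rat position, with larger points for more counts. The placed sequences include the 18-base form of miR-11987, the largest point, and the GC-rich forms at upper left, while the unplaced ones are 20 to 25 bases long.

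Most of the placed counts were in rows with a position in 1 of 2 stretches of the rat genome, 137 and 7.76 kb long. The first, at chr14:46518055-46655274, held 9 bovine-named rows from 4 entries, namely miR-11980, miR-11987, miR-12034 and miR-2904. The second, at chr6:30633292-30641049, held 6 rows from miR-11980, miR-11987, miR-2904 and both arms of miR-2887-2. These 15 rows held 63.1% of the placed counts and 44.6% of all bovine-named counts. Their 12 sequences, some of which also have rows elsewhere, had a median GC content of 70.3% (55.6% to 94.4%). There were 0 rat-named rows at either place. The same stretches held 18 and 4 rows with mouse or human names, led by mouse miR-6240 and miR-6236. The hairpins given for bovine-named rows were short: their median length was 38 bases (26 to 122) and 67.6% of 37 were under 60 bases, against a median of 99 bases and 1.65% of 303 for rat-named rows.

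The bovine-named rows were a small part of every library. They took 0.832%, 0.313%, 0.208% and 0.428% of the counts of NPC replicates 1 to 4, and 0.276%, 0.235%, 0.149% and 0.140% of those of NPPC replicates 1 to 4. NPC replicate 1 was the highest, the 2 lowest were NPPC libraries, and the groups overlapped. The mean share was 0.445% ± 0.273 (SD, n = 4) in NPC exosomes and 0.200% ± 0.0662 (SD, n = 4) in those of NPPC, a difference of -0.245 percentage points. Without NPC replicate 1 the difference was -0.116 percentage points. No test was made of these sums: the names alone define the rows, but they were singled out with earlier results of these libraries known. A lower share can come from fewer vesicles that carry a sequence, from fewer copies in each or from more counts of other RNAs in the library. These cannot be told apart, and whether the reads lay inside vesicles was not tested.

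In absolute counts the bovine-named rows varied far less than the libraries did. They held 2736, 1934, 1419 and 2299 counts in NPC replicates 1 to 4 and 2260, 2561, 2108 and 1838 in NPPC replicates 1 to 4. The highest was 1.93 times the lowest, while the highest library total, 1416940, was 4.31 times the lowest, 329011. All 4 NPPC libraries had higher totals than the NPC libraries, and the shallowest, NPC replicate 1, had the highest bovine-named share. Depth and cell type therefore move together in these shares and cannot be told apart.

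**Figure D2:**
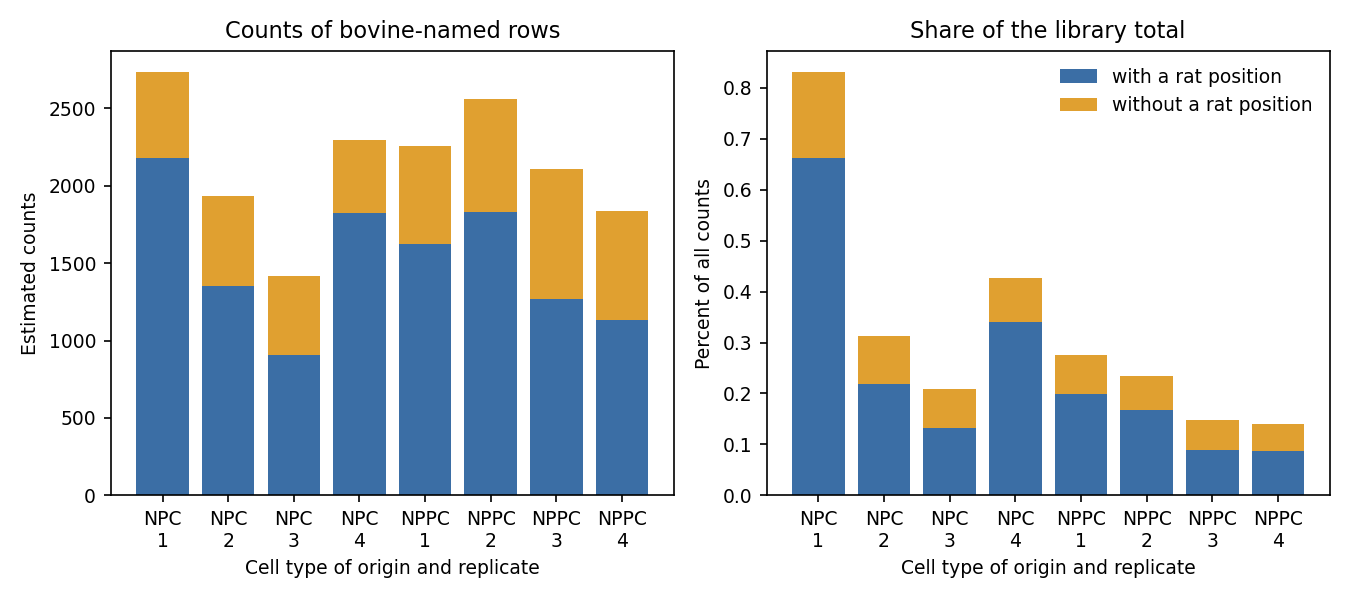
Estimated counts (left) and percent of all counts (right) of bovine-named rows in each library, stacked by whether the table gives a rat position. Counts lie between 1419 and 2736, whereas shares run from 0.140% to 0.832% with NPC replicate 1 highest.

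The placed sequences supplied most of the variation. Their share was 0.663%, 0.218%, 0.133% and 0.339% in NPC replicates 1 to 4 and 0.198%, 0.168%, 0.090% and 0.086% in NPPC replicates 1 to 4, with overlap between the groups. They held 70.7% of all bovine-named counts. The means were 0.338% ± 0.232 (SD, n = 4) and 0.136% ± 0.0564 (SD, n = 4), and the difference of -0.203 percentage points was -0.0945 without NPC replicate 1. The rows at the 2 genome places ranged from 0.0987% to 0.441% of the NPC libraries and from 0.0552% to 0.118% of the NPPC libraries.

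The unplaced sequences were steadier. Their share was 0.168%, 0.095%, 0.076% and 0.088% in NPC replicates 1 to 4 and 0.077%, 0.067%, 0.059% and 0.054% in NPPC replicates 1 to 4. NPC replicate 3 lay just below NPPC replicate 1, so these groups also overlapped. The means were 0.107% ± 0.0419 (SD, n = 4) and 0.0643% ± 0.0102 (SD, n = 4), a difference of -0.0424 percentage points, or -0.0218 without NPC replicate 1. A narrower class, of the 24 unplaced sequences that share no run of 18 bases with a rat miRNA, was defined after values had been seen. It took 0.117%, 0.071%, 0.062% and 0.073% of NPC and 0.060%, 0.054%, 0.036% and 0.039% of NPPC libraries, without overlap. Its counts were between 384 and 587 in all 8 libraries. Of its 3737 counts 2319 belonged to miR-574, a sequence that also has a mouse-named row. The rat sequences searched for such runs were not complete.

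Other rows without rat names also had lower mean shares in NPPC exosomes. Mouse- or human-named rows took 2.63% ± 0.716 (SD, n = 4) of the counts of NPC libraries and 1.39% ± 0.212 (SD, n = 4) of those of NPPC libraries, and predicted candidates took 1.12% ± 0.382 (SD, n = 4) and 0.445% ± 0.114 (SD, n = 4). In both classes all NPC libraries lay above all NPPC libraries. Rows named after the remaining species took 0.350% (SD 0.211, n = 4) and 0.198% (SD 0.0196, n = 4), and there the groups overlapped. The lower mean share in NPPC exosomes was thus not seen in bovine names alone.

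The reads behind bovine names were richer in G and C in NPC exosomes. Weighted by counts, their GC content was 61.3%, 59.1%, 58.7% and 58.1% in NPC replicates 1 to 4 and 57.5%, 57.3%, 57.2% and 57.9% in NPPC replicates 1 to 4. Every NPC library lay above every NPPC library, although NPC replicate 4 and NPPC replicate 4 nearly met. The means were 59.3% ± 1.41 (SD, n = 4) and 57.5% ± 0.304 (SD, n = 4), with no test for the same reason as above. With each detected sequence weighted once, the difference of -1.86 points became -0.451, and without NPC replicate 1 it was -1.19. NPC replicate 1 also had the highest GC content among rat-named reads, 49.4%, where the other libraries stood between 43.8% and 45.1%, and the part of this in the bovine-named result was not tested. Other classes also had higher mean GC content in NPC exosomes. For mouse- or human-named reads the means were 60.3% in NPC and 58.4% in NPPC libraries. Reads named after the remaining species had 60.3% and 58.4%, and rat-named reads 45.8% and 44.2%. Predicted candidates went the other way, at 63.7% and 63.8%. In all of these classes the groups overlapped.

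For single sequences the 2 cell types were compared with edgeR's two-sided quasi-likelihood test over 422 sequences, of which 19 were bovine-named, 11 with a position and 8 without. Of the 422, 1 had a Benjamini-Hochberg adjusted p under 0.05 (0.237%), the rat-named miR-146a-5p. Of the 19 bovine-named sequences 0 did. At an unadjusted p under 0.05 there were 0 bovine-named sequences higher in NPPC exosomes and 3 lower, all with a position, against 5.21% of the 422 higher and 6.16% lower. The DESeq2 Wald test called 2 of the 19, miR-12034 and the 18-base miR-11980, and 7 of 421 sequences in all (1.66%). With limma-voom 0 of the 19 were called and 4 were lower at an unadjusted p under 0.05, against 1 called (0.237%) and 30 lower (7.11%) of the 422.

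Of the 19 fold changes 15 were below 0, against 49.3% of the 422. Their median log2 fold change of NPPC over NPC was -0.67, where that of all 422 was 0.0061 and that of 279 rat-named sequences 0.25. The median of 88 sequences named after other species was -0.53 and that of 36 predicted candidates -1.01, with no test against the bovine-named median. The latter was -0.42 without NPC replicate 1, with 16 of 22 tested below 0. After a correction for GC content it was -0.37, with 13 of 19 below 0, and with that correction and without NPC replicate 1 it was -0.080, with 12 of 22 below 0. With libraries scaled to their totals it was -0.88, where the median of all sequences fell to -0.32.

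**Figure D3:**
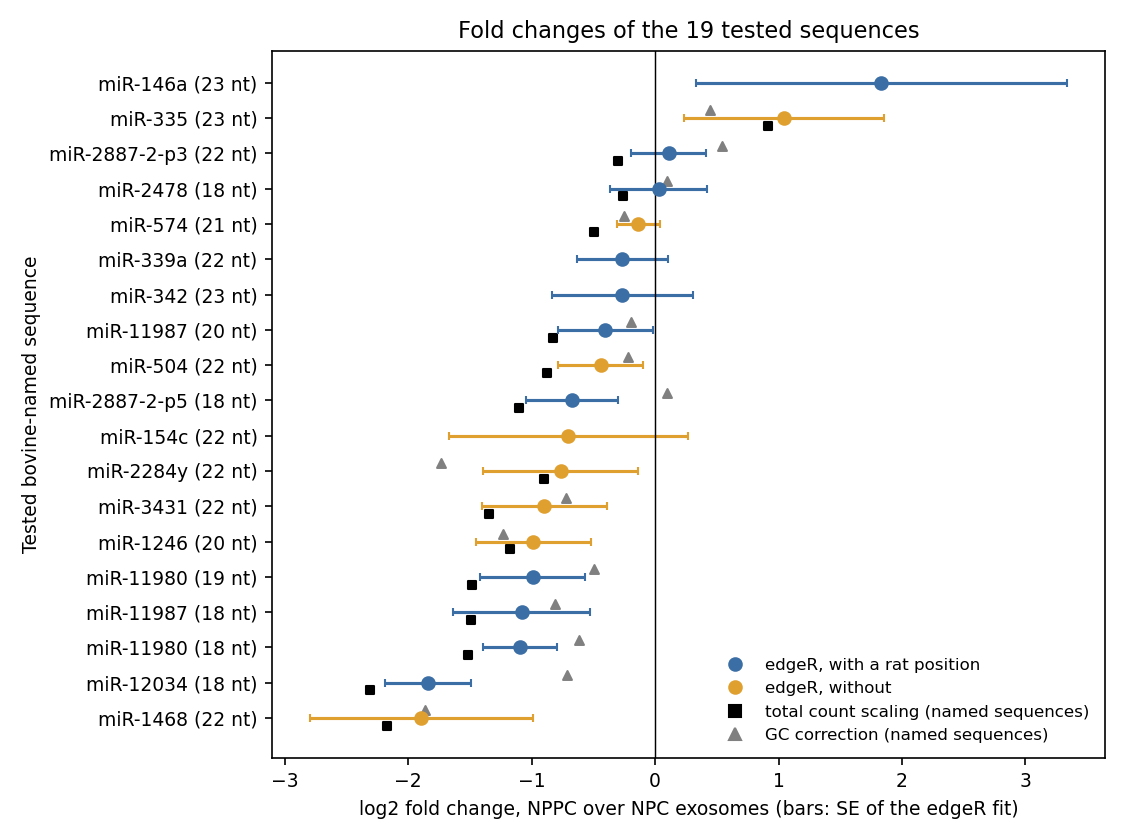
Log2 fold change of NPPC over NPC exosomes for the 19 tested bovine-named sequences (points; bars are the standard error of the edgeR fit), with values under total count scaling (squares) and after GC correction (triangles) for the named ones. Points lie below 0 for 15 of the 19, and the square and triangle of a sequence often lie further apart than the standard error.

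The miR-11987 forms held 37.9% of all bovine-named counts, nearly all in the 18-base form. That form stood at 3428, 1001, 447 and 2242 counts per 1000000 counts of the library (CPM) in NPC replicates 1 to 4 and at 1022, 909, 327 and 286 CPM in NPPC replicates 1 to 4. It was high in NPC replicates 1 and 4, and NPC replicates 2 and 3 lay within the range of the NPPC libraries. The log2 fold change was -1.08 ± 0.55 (SE), with an adjusted p of 0.469 by edgeR, and -0.40 after GC correction without NPC replicate 1. The 20-base form, at a mean of 118.8 CPM (SD 87.0, n = 4) in NPC exosomes against 66.5 CPM (SD 25.1, n = 4) in those of NPPC, had a log2 fold change of -0.40 ± 0.38 (SE), which turned to 0.24 after GC correction without NPC replicate 1.

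The miR-12034 form, at 94.4% GC the richest of the 62, had the smallest p among the bovine-named sequences. It was at 447, 146, 93.9 and 125 CPM in NPC replicates 1 to 4 and at 40.3, 52.3, 36.7 and 33.6 CPM in NPPC replicates 1 to 4. The groups did not overlap, and NPC replicate 1 was far above the other 7 libraries. The fitted log2 fold change was -1.84 ± 0.35 (SE), with an unadjusted p of 0.000676 and an adjusted p of 0.143 by edgeR, so it did not pass. DESeq2 gave -1.88 with an adjusted p of 0.000587. Over 24 settings the log2 fold change stayed below 0, from -2.31 to -0.58, and the adjusted p ran from 0.000587 to 0.695. After GC correction the log2 fold change was -0.72, with an adjusted p of 0.536 by edgeR. That correction was fitted over all tested sequences, this one included. It may therefore have removed part of the sequence's own difference.

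The 18-base miR-11980 form was at 395, 163, 116 and 184 CPM in NPC replicates 1 to 4 and at 57.3, 91.7, 62.1 and 87.7 CPM in NPPC replicates 1 to 4, again without overlap. With a log2 fold change of -1.09 ± 0.30 (SE), its adjusted p was 0.314 by edgeR and 0.0480 by DESeq2. After GC correction the log2 fold change was -0.62, with an adjusted p of 0.536 by edgeR, and -0.15 without NPC replicate 1 as well. The 19-base form, which adds a single A, was at 888, 222, 163 and 184 CPM in NPC and at 211, 106, 83.3 and 121 CPM in NPPC replicates 1 to 4. There NPPC replicate 1 lay within the NPC range. Its log2 fold change was -0.99 ± 0.43 (SE), with an adjusted p of 0.421, and it turned to 0.35 after GC correction without NPC replicate 1.

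The 2 overlapping arms of miR-2887-2 had fold changes of opposite sign in the edgeR fit, with that of the 3′ arm near 0. The 5′ arm was at 775, 265, 138 and 303 CPM in NPC replicates 1 to 4 and at 270, 186, 124 and 111 CPM in NPPC replicates 1 to 4. Its log2 fold change was -0.67 ± 0.37 (SE), with an adjusted p of 0.494 by edgeR, and 0.094 after GC correction. The 3′ arm was at 152, 63.1, 38.2 and 52.1 CPM in NPC and at 72.0, 67.9, 60.7 and 45.0 CPM in NPPC replicates 1 to 4. A log2 fold change of 0.11 ± 0.30 (SE), with an adjusted p of 0.878 by edgeR, turned to -0.30 when libraries were scaled to their totals. The 5′ arm had -1.10 under that scaling. For the 3′ arm it was 0.54 after GC correction, and 1.08 without NPC replicate 1 as well. Neither arm passed, and the difference between the arms was not tested.

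The 18-base form of miR-2478 showed no separation. It was at 88.1, 79.3, 27.9 and 63.3 CPM in NPC replicates 1 to 4 and at 90.3, 46.8, 49.8 and 29.0 CPM in NPPC replicates 1 to 4. The log2 fold change of 0.030 lay below 0 under 6 of the alternatives. The table places it at a 31-base hairpin on chromosome 17, and the rarer 19-base form at hairpins of 35 and 36 bases on chromosome X. The 5 sequences named miR-2904 held 1.77% of the bovine-named counts, and none was tested. The most abundant of them was at 132 CPM in NPC replicate 3 and at 0 to 24.2 CPM in the other libraries. In 2 cases rows with different miR-2904 sequences carried identical values in all 8 libraries.

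**Figure D4:**
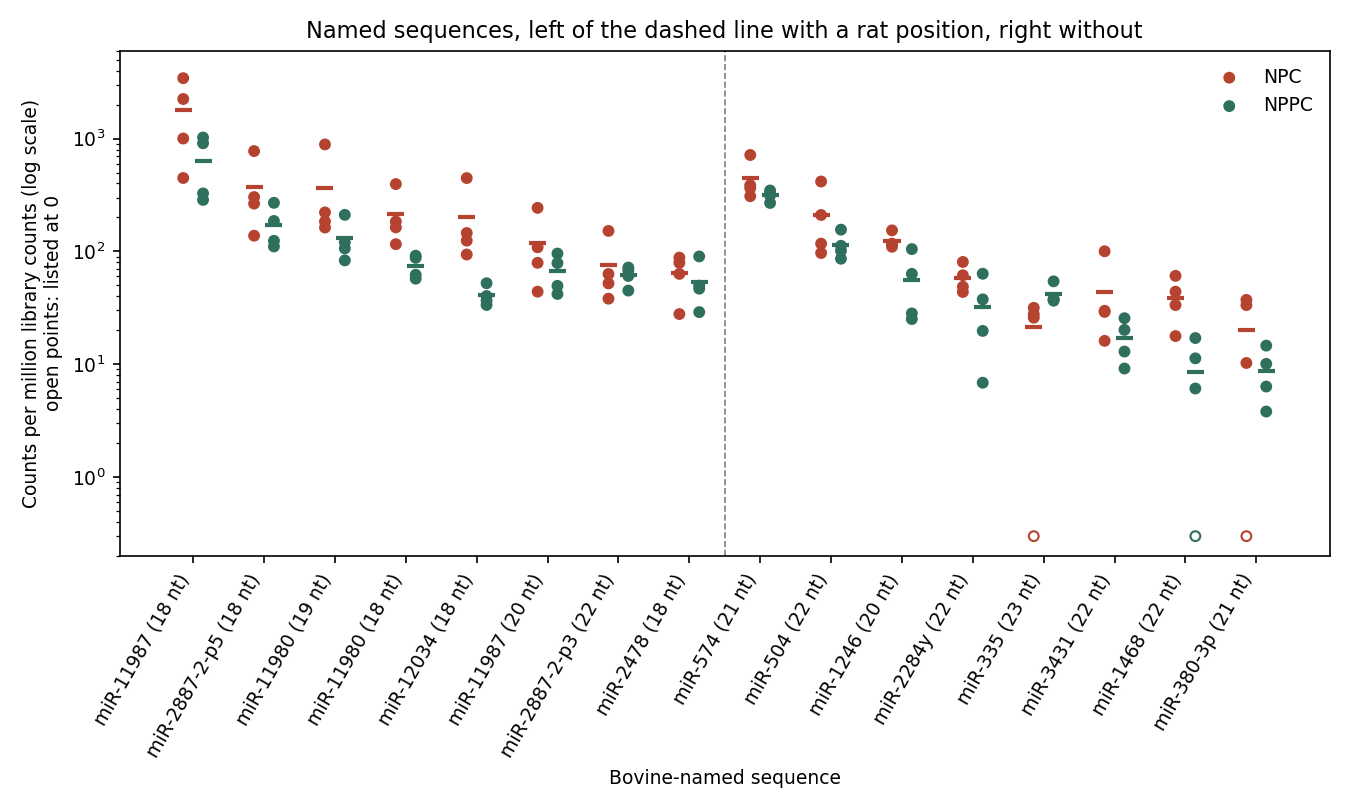
CPM (counts per 1000000 library counts, log scale) of the 16 named bovine-named sequences in each NPC and NPPC library, with group means as bars and open points for libraries listed at 0. Left of the dashed line are the 8 placed sequences, among which miR-12034 and the 18-base miR-11980 have groups that do not overlap, and right of it the 8 unplaced ones.

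Among the unplaced sequences miR-574 was the most abundant, with 13.5% of the bovine-named counts. It was at 715, 364, 309 and 386 CPM in NPC replicates 1 to 4 and at 330, 347, 269 and 314 CPM in NPPC replicates 1 to 4. For miR-574 the log2 fold change was -0.13 ± 0.18 (SE), with an adjusted p of 0.715 by edgeR. A row with the mouse name miR-574-5p has the same sequence and identical values in every library. How the authors divided reads between such rows is not stated, so the level under the bovine name may not be that of the sequence. In all, 8 of the unplaced sequences were also carried by rows with other names.

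For some unplaced sequences the rat has the same letters. All 22 bases of the form named bovine miR-504 lie within the rat miR-504 hairpin, and all 23 bases of bovine miR-335 lie within the rat miR-335 hairpin. The bovine-named miR-504 form held 936 counts, whereas the rat-named row held 23. It was at 416, 210, 96.8 and 117 CPM in NPC replicates 1 to 4 and at 112, 86.2, 156 and 101 CPM in NPPC replicates 1 to 4, with overlap. A log2 fold change of -0.44 ± 0.35 (SE), with an adjusted p of 0.603, turned to 0.22 after GC correction without NPC replicate 1. The rat-named row is a shorter form with the same start and seed:
rat-named miR-504: gACCCTGGtctgcactctg
bovine-named miR-504: gACCCTGGtctgcactctgtct

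The miR-335 sequence was the only tested one without a position that was higher in every NPPC than in every NPC library. It was listed at 0 in NPC replicate 1, at 25.9, 27.9 and 31.6 CPM in NPC replicates 2 to 4, and at 37.8, 37.6, 54.3 and 36.6 CPM in NPPC replicates 1 to 4. The log2 fold change was 1.04 ± 0.81 (SE), with an adjusted p of 0.603 by edgeR, so it did not pass. It was 0.44 after GC correction and 1.83 with limma-voom. Rat-named miR-335 rows, shown by the more abundant, held 266 counts to the bovine-named 249. They too were at 0 in NPC replicate 1:
rat-named miR-335: tCAAGAGCaataacgaaaaat
bovine-named miR-335: tCAAGAGCaataacgaaaaatgt

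The remaining named sequences without a position were mostly lower in NPPC exosomes. miR-1246, which has been reported both in fetal bovine serum and as a piece of U2 small nuclear RNA, was at 116, 154, 110 and 117 CPM in NPC replicates 1 to 4 and at 105, 63.3, 28.2 and 25.2 CPM in NPPC replicates 1 to 4. The groups did not overlap in these shares but did after TMM scaling. The log2 fold change was -0.99 ± 0.46 (SE), with an adjusted p of 0.439 by edgeR. Human-named miR-1246 rows of nearly the same sequence held 151 counts to its 499.

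miR-1468 was at 60.8, 17.8, 44.0 and 33.5 CPM in NPC replicates 1 to 4 and at 17.1, 11.3 and 6.10 CPM in NPPC replicates 1, 3 and 4, and was listed at 0 in NPPC replicate 2. The groups did not overlap, though NPC replicate 2 and NPPC replicate 1 nearly met. With edgeR the log2 fold change was -1.89 ± 0.90 (SE), with an adjusted p of 0.441, and with limma-voom it was -2.53. In all, 5 of the 19 bovine-named sequences had groups that did not overlap, against 12.3% of the 422, and none of these 5 passed the edgeR test.

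miR-2284y belongs to the ruminant repeat family and was at 48.6, 61.5, 80.7 and 43.7 CPM in NPC replicates 1 to 4 and at 63.4, 37.6, 19.8 and 6.87 CPM in NPPC replicates 1 to 4. NPPC replicate 1 lay within the NPC range. In the edgeR fit its log2 fold change was -0.77 ± 0.63 (SE), with an adjusted p of 0.603, and it was -1.73 after GC correction. miR-3431 was at 100.3, 29.1, 16.1 and 29.8 CPM in NPC and at 25.6, 20.2, 9.17 and 13.0 CPM in NPPC replicates 1 to 4, with a log2 fold change of -0.90 ± 0.51 (SE), which was -0.15 after GC correction without NPC replicate 1. miR-380-3p, from the imprinted Dlk1-Dio3 miRNA cluster, was too low to be tested, at 0 to 37.2 CPM in NPC and 3.81 to 14.6 CPM in NPPC libraries.

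Some bovine-named sequences resembled a rat miRNA with more counts. Over all libraries they stood at a part of it, such as 0.0178% for miR-199c and 14.6% for miR-342. The clearest was the miR-199c form, which shares its first 19 bases with rat miR-199a-3p, one of the most abundant miRNAs here with 460006 counts. It held 82 counts and was listed at 0 in all 4 NPC libraries and at 7, 17, 19 and 39 counts in NPPC replicates 1 to 4, too few to be tested. In CPM the NPPC values were 8.54, 15.6, 13.4 and 29.8, whereas 5 counts are 7.34 to 15.2 CPM in the shallower NPC libraries. The listed zeros therefore do not show that it was absent from NPC exosomes. In NPPC libraries it was at 0.0130% to 0.0461% of the rat-named row:
rat-named miR-199a-3p: aCAGTAGTctgcacattggtt
bovine-named miR-199c: aCAGTAGTctgcacattggct

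Bovine-named miR-339a stood at 3.49% of the rat-named miR-339-5p row over all libraries, and from 2.73% to 5.35% in each. Bovine-named miR-342 stood at 14.6% of its rat-named counterpart, which held only 666 counts, and from 5.93% to 25% in each library. The bovine-named form of miR-146a, a miRNA that restrains NF-kappaB signalling, stood at 1.82% of the 4170 counts of rat miR-146a-5p over all libraries, at 15.8% in NPC replicate 2 and at 1.58% to 2.48% in NPPC replicates 2 to 4. It was listed at 0 in NPC replicates 1, 3 and 4 and in NPPC replicate 1, and at 15.4, 17.9, 20.5 and 13.7 CPM in NPC replicate 2 and NPPC replicates 2 to 4. Its log2 fold change was 1.83 ± 1.50 (SE), with an adjusted p of 0.603 by edgeR, where rat-named miR-146a-5p had 3.44 ± 0.49 (SE) and an adjusted p of 0.0362. In all, 15 of the 62 sequences shared a run of at least 18 bases with a rat miRNA and held 10.5% of the bovine-named counts, and 17 had a seed that a rat-named row also has.

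Lists of miRNA names, drawn up from general knowledge, described which kinds of miRNA had bovine-named rows. By listed name, 0 bovine-named rows belonged to the let-7 family, to mesenchymal miRNAs such as miR-21 and miR-199a, to endothelial miR-126 or to erythrocyte miRNAs such as miR-451 and miR-486. The same lists had 23, 13, 2 and 4 rat-named rows, in that order. The missing bovine-named rows therefore do not show that such miRNAs were absent. The 2 sequences named miR-199c, which resemble miR-199a-3p, were not on the mesenchymal list. The 4 names reported in fetal bovine serum, miR-122, miR-451, miR-451a and miR-1246, were represented by 2 sequences, both named miR-1246. Their summed level was 110 to 154 CPM in NPC and 27.1 to 105 CPM in NPPC libraries, and bovine miR-122 and miR-451 were without a row. The same serum names had 2 rat-named rows. These summed to 82.1 to 243 CPM in NPC and 93.8 to 796 CPM in NPPC libraries, and their source was not tested. Of the liver names only miR-885 had a bovine-named row, with 2.5 counts in all, while 6 rows with liver names were rat-named.

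The list of names reported as pieces of other RNAs, which also holds miR-1246, was the fullest, with 11 sequences named miR-1246, miR-2478, miR-2887 and miR-2904. They summed to 527 to 1161 CPM in NPC and 225 to 579 CPM in NPPC libraries, and of the 4 tested 2 had positive and 2 negative fold changes. The miR-2284 and miR-2285 families had 6 sequences, of which miR-2284y alone was tested. Together the 6 summed to 48.6 to 88.0 CPM in NPC and 6.87 to 63.4 CPM in NPPC libraries. The leukocyte names had 3 sequences and the Dlk1-Dio3 cluster 4, with 1 tested in each. The liver, erythrocyte, endothelial, let-7 and mesenchymal lists had 0 tested bovine-named sequences, so nothing could pass there. In each of the other lists 0 of the tested bovine-named sequences passed the edgeR test.

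Most bovine-named sequences were rare. Of the 62, 17 were listed above 0 in 1 library only, and 16 in all 8. Counts over all libraries were under 10 for 20 of them. Among the 266 values above 0 per sequence and library, only 25 were under 5. A listed 0 therefore need not mean that a sequence was absent. With libraries thinned to the smallest total, 27.0, 22.5, 19.6 and 23.4 sequences reached 5 counts in NPC replicates 1 to 4 and 19.9, 19.3, 15.9 and 15.1 in NPPC replicates 1 to 4. Without thinning the order turned, with 26 to 28 in NPC and 30 to 39 in NPPC libraries, so the order of the groups depended on depth.

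Over the 8 libraries the rat-named miRNA whose log2 CPM ranked most like that of bovine-named miR-574, out of 279, was miR-132-3p, with a Spearman correlation of 0.881. For miR-504 it was miR-1249 with 0.857, and for miR-1246 it was miR-28-3p with 0.929. These are descriptions over libraries that share depth and group, picked as the highest of many.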

How the data were processed

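For 8 libraries the authors deposited an estimated count in each miRNA row. Of 313 values above 0 in bovine-named rows 68.1% were whole within 1e-09, so reads were split between rows. A scaled signal column, deposited beside each count column, and the GC percent of each hairpin, also deposited by the authors, were checked and not tested. The submitters' processing notes name CASAVA 1.8. The aligner was not given in the sources used here, nor were the miRBase version and the build.

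Counts were summed per sequence, bovine-named rows apart from others, and rounded. edgeR 4.0.16 (R 4.3.3) was run with TMM factors, filterByExpr, a model of group alone and Benjamini-Hochberg adjustment over 422 sequences. CPM in the text is relative to the library total, without TMM. The share of rows, GC content and detected sequences were computed in Python 3.11.15 (pandas 2.3.3, numpy 2.4.6), as means of 20 thinnings where thinned. Rat sequences for matching were 419 hairpins and 724 mature miRNAs of RefSeq (GRCr8), which is not complete, plus the deposited rat-named rows. Positions within 200000 bases were joined. TMM factors were 1.68 in NPC replicate 1 and 0.837 to 1.02 in the others. In simulated data for NPPC over NPC, 200 sequences were set to change and 389 were tested. The test recovered 26% of 2-fold and 72% of 4-fold changes, with 2 unchanged sequences called. So many changed sequences loosen the Benjamini-Hochberg cut-off, whereas 1 of 422 was called in the real data. These rates may therefore overstate what the test could recover here.

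Named sequences were the 8 with and the 8 without a position of highest mean share, tested ones whose groups did not overlap, and up to 2 per list. Others named, namely the miR-2904, miR-199c, miR-339a, miR-342 and miR-146a forms, were chosen after their values were seen, as were the 18-base run and the 2 genome places. Members and lists were chosen with earlier results of these data known. Alternatives included DESeq2 1.42.0, limma 3.58.1 (voom), other scalings and filters, a GC correction (loess, span 0.75), a replicate block, leaving out single libraries, and thinning. Chosen after seeing the data were the GC correction and the total count scaling without NPC replicate 1, and the share without the most abundant sequence.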

Additional observations from a re-analysis of the deposited data

Results flagged for a closer look

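In 5 of 44 groups of 4 libraries examined, 1 library stood far from the others. For independent groups of normally distributed values chance gives about 1 in 20. The groups here reuse the same libraries and include shares nested in each other, so the 5 cannot be set against that rate. NPC replicate 1 was high in 3 of the 5. The 19-base miR-11980 form was at 888 CPM there, where the other NPC libraries were at 163 to 222 CPM. In the same library miR-12034 was at 447 CPM against 93.9 to 146 in the rest, and miR-3431 was at 100.3 CPM against 16.1 to 29.8. miR-1246 was at 154 CPM in NPC replicate 2, while NPC replicates 1, 3 and 4 held 110 to 117 CPM of it. miR-335 was at 54.3 CPM in NPPC replicate 3, against 36.6 to 37.8 CPM in the other NPPC libraries.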

How the results depend on the processing

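Of 343 alternative values for 15 named sequences under 23 settings, 328 kept direction and side of the threshold. The DESeq2 Wald test called 2 bovine-named sequences (miR-12034 and the 18-base miR-11980) and 7 of all sequences. Of all sequences, 5 were called without a filter and 0 with rows as deposited. With 1 library left out, 0 bovine-named sequences were called (0 to 0) and 0 to 1 of all. The share differed by -0.324 to -0.116 percentage points, that of placed sequences by -0.271 to -0.0945 and that of unplaced ones by -0.0528 to -0.0218, the smallest of each without NPC replicate 1. The GC difference was -0.451 points with each detected sequence weighted once, -3.38 without the most abundant sequence, and -2.27 to -1.19 with 1 library left out. The number of sequences at 5 counts differed by -5.59 thinned, 6.25 unthinned and -6.76 to -4.29 with 1 library left out. The miR-2887-2 5′ arm turned to 0.094 with GC correction, 0.017 with GC correction and a replicate block, and 0.68 with GC correction without NPC replicate 1, where the 19-base miR-11980, the 20-base miR-11987 and miR-504 turned to 0.35, 0.24 and 0.22. The 3′ arm turned to -0.30 with total count scaling. miR-2478 turned to -0.26 there, -0.0054 with upper-quartile factors, -0.024 with voom, -0.11 without NPC replicate 3, -0.27 without NPPC replicate 1 and -0.084 with both total count scaling and NPC replicate 1 left out. Leaving out 1 library, it ran from -0.27 to 0.29. The cause was not tested. Same-numbered libraries correlated at 0.560, 0.139, 0.238 and 0.0810 and share only a number. With the replicate block 0 bovine-named sequences and 1 of all were called. Depth limits what low sequences can show: 5 counts are 3.53 to 15.2 CPM.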
